A study of Saccharomyces cerevisiae with 6 samples.

Results

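SNZ1 and SNO1 are neighbouring genes of vitamin B6 synthesis in budding yeast, taken here by their systematic names, YMR096W and YMR095C, as 2 genes among the 5475 gene rows of the deposited table. The pair was chosen by its measured levels in these 6 samples, namely its rise in the deletion and after rapamycin, so those levels are given as a description with no test. The study measured transcripts in 6 samples of Saccharomyces cerevisiae BY4741, a haploid laboratory strain, all grown in YPD, a rich glucose medium, at 30 °C to an optical density near 0.8. There were 2 samples of untreated wild type (WT), 2 of a bud27 deletion mutant without treatment and 2 of WT incubated overnight with 50 ng/ml of rapamycin. Bud27 is a chaperone-like protein of the prefoldin family. Rapamycin blocks TORC1, a kinase complex that promotes growth when nutrients are plentiful. No label states that samples sharing a group were grown separately, or how many clones carried the deletion, so p-values reflect only how these samples vary, and that variation may be technical.

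Vitamin B6 is needed in its active form, pyridoxal 5′-phosphate (PLP), by a large set of enzymes, most of which handle amino acids. Snz1 and Sno1 form a PLP synthase: Sno1 is the glutaminase that frees ammonia from glutamine, and Snz1 is the subunit that joins this ammonia to sugar phosphates. The pair is known to be induced in stationary phase and when amino acids are short, the latter through Gcn4, a transcription factor that responds to amino acid starvation.

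The genes lie head to head on chromosome XIII in build R64, SNO1 on the minus strand at 457285 to 457959 and SNZ1 on the plus strand at 458408 to 459301, with a shared region of 448 bases between their start codons. A search of both strands of this region found 3 copies of TGACTC, the core of the Gcn4 binding motif, all on the plus strand, of which 2 are followed by A and so also read TGACTCA. Between their last base and the SNZ1 start codon lie 299, 248 and 173 bases. The stretch below, chrXIII:458078-458259 on the plus strand, is shown because it holds all 3, in capitals.
SNO1-SNZ1 region: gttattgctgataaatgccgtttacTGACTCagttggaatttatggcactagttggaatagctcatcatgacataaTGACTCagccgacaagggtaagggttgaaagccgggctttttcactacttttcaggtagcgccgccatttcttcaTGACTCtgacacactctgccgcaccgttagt
Of the 6000 genes with a window of 448 bases before their start codon, 11.3% had at least 1 copy of TGACTC, 1.2% at least 2 and 0.15%, which is 9 genes with SNO1 and SNZ1 among them, at least 3. TGACTCA was found at least once in 3.7% of the windows. The region held no copy of GATAAG, the GATA factor motif, or of AGGGG, the core of the Msn2 and Msn4 stress motif, which occurred in 20.8% and 31.7% of the windows. It held 1 TATAAA, found in 58.2%. A match is a run of letters and does not show that a factor was bound.

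**Figure D1:**
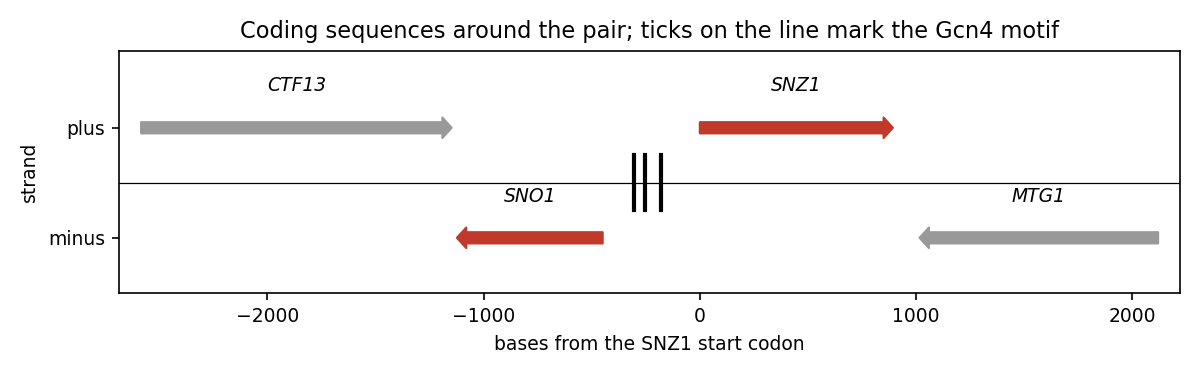
Coding sequences around the pair by strand, with arrows pointing in the direction of transcription and the distance in bases from the SNZ1 start codon on the x axis; vertical ticks mark the 3 copies of TGACTC. All 3 ticks lie in the 448 bases between the start codons of SNO1 and SNZ1, and the ends of SNO1 and CTF13 lie 23 bases apart.

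The QuantSeq libraries hold reads from 3′ ends of transcripts, so a value does not grow with transcript length. Values are CPM, reads of a row relative to the library total, rescaled between libraries by the trimmed mean of M-values (TMM), and are called scaled CPM. The table has no row for SNZ1 alone: its reads are in a row that joins SNZ1 with CTF13, a kinetochore gene on the same strand at 455825 to 457261, beyond SNO1. SNZ1 values below are those of this joined row, and the reads of the 2 genes in it cannot be told apart. SNO1 has a row of its own, but its coding sequence ends 23 bases from that of CTF13, which runs towards it. The strand setting of the counting is not given in the sources used here, so reads in that gap cannot be told apart either. MTG1, a mitochondrial GTPase gene that runs towards SNZ1 from the other side with 122 bases between, had 11.4 and 11.9 scaled CPM in WT, 8.88 and 8.38 in deletion libraries and 11.9 and 11.6 after rapamycin. Those levels lay within a narrow range in all 6 libraries, and MTG1 was not called in the deletion (log2 fold change -0.39, SE 0.15, limma adjusted p = 0.0655) or after rapamycin (0.01, SE 0.15, adjusted p = 0.96). Both values change sign under another scaling, and the latter was called on the deposited CPM scale (0.57, adjusted p = 0.0252).

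The paralogs SNZ2 and SNZ3, and SNO2 and SNO3, lie near chromosome ends and were not analysed here. The coding sequence of SNZ1 was identical to that of SNZ2 at 71.1% of aligned bases and to that of SNZ3 at 71.3%, and no run of more than 14 bases was shared. SNO1 was identical to SNO2 and to SNO3 at 60.5% of bases, again with no shared run of more than 14. SNZ2 and SNZ3 themselves were 99.3% identical, and SNO2 and SNO3 99.7%.

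WT libraries totalled 26899486 and 18153459 reads, rapamycin libraries 28774941 and 20841682, and deletion libraries 3212848 and 5088194. Reads of BUD27, the deleted gene, numbered 268 and 246 for WT, 6 and 9 for deletion libraries and 326 and 234 for rapamycin. In scaled CPM these are 13.0 and 16.8, 1.66 and 1.75, and 9.49 and 9.36. On the log2 scale BUD27 fell by 2.54 in deletion libraries (SE 0.18, limma adjusted p = 4.91e-05) and fell by 0.60 after rapamycin (SE 0.18, adjusted p = 0.0298). The latter call was lost without WT replicate 2 (0.174), without rapamycin replicate 1 (0.162) or 2 (0.172), and on the deposited CPM scale (0.873). How much of the gene was removed is not stated. The deletion libraries also had few reads of the tryptophan gene TRP1, 5 and 8 against 738 and 626 in WT, and less of FRS2, the neighbour of BUD27, at 34.4 and 23.0 scaled CPM against 165 and 103. Loss of Bud27 and these other differences cannot be told apart in the deletion values below. Of the markers of mating type a, 4 of 4 (MFA1, MFA2, STE2 and BAR1) had between 28.9 and 1942 scaled CPM in every library. Of the alpha type, MF(ALPHA)1 had 0 to 1 reads, MF(ALPHA)2 2 to 7 reads, STE3 0.195 to 7.32 scaled CPM and SAG1 7.60 to 23.5. Of the genes deleted in whole or in part in BY4741, LEU2, MET17 and URA3 stood between 0 and 5.48 scaled CPM, and HIS3, in a joined row, between 47.2 and 361.

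SNZ1 was low in WT, far higher in the deletion and in between after rapamycin, and SNO1 followed the same order with far fewer reads. WT libraries held 502 and 366 reads of the SNZ1 row, deletion libraries 6267 and 6927, and rapamycin libraries 6496 and 4155. Scaled CPM of the row were 24.3 and 25.1 for WT, 1739 and 1349 for deletion libraries and 189 and 166 for rapamycin. Both deletion libraries were thus the highest, both WT libraries the lowest, and no 2 groups overlapped. The share of all rows without overlap was not counted. Among the gene rows of a library, ordered from the most abundant, the SNZ1 row stood at 2549 and 2523 in WT, at 55 and 107 in the deletion and at 506 and 552 after rapamycin. In bulk samples a larger share of cells with the transcript and more transcript per cell cannot be told apart.

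WT libraries held 4 and 0 reads of SNO1, deletion libraries 181 and 283, and rapamycin libraries 178 and 88. Scaled CPM of SNO1 were 0.194 and 0 for WT, 50.2 and 55.1 for deletion libraries and 5.18 and 3.52 for rapamycin. The groups did not overlap for SNO1 either, and the deletion libraries were the highest although they were the shallowest. The count of 0 allows up to 3 reads, or 0.205 scaled CPM, in the second WT library, so the WT libraries are not told apart at this depth. Such floors, and the exact 95% intervals below, cover counting error only.

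**Figure D2:**
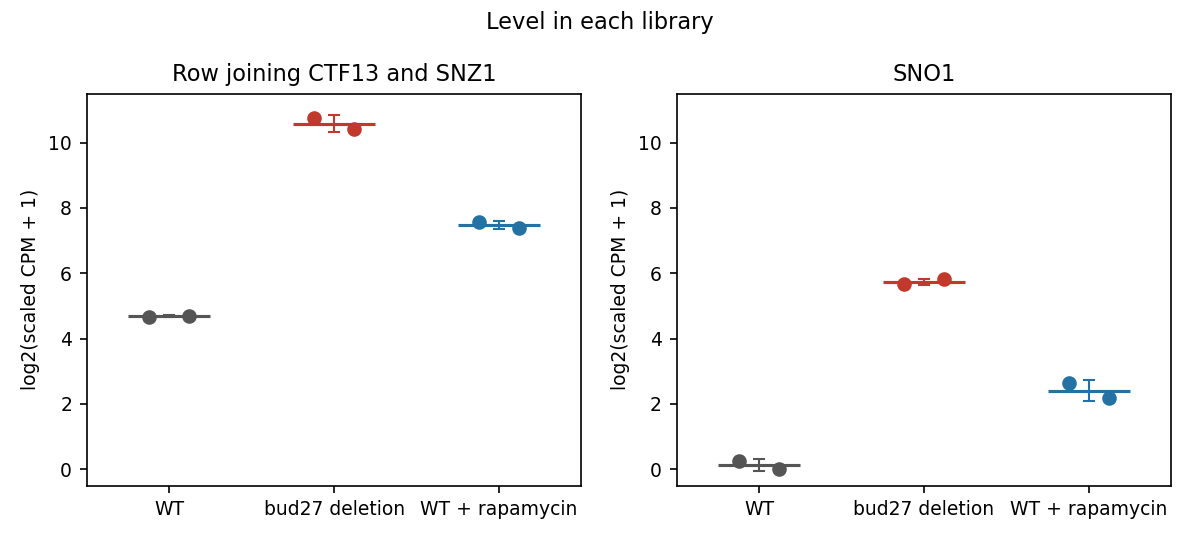
Level of the row joining CTF13 and SNZ1 and of SNO1 in each library, as log2(scaled CPM + 1). Points are libraries, lines are means and bars are 1 SD (n = 2 per group). The order WT, rapamycin, deletion is the same in both panels, and the 2 libraries of a group lie close together beside the gaps between groups.

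On the log2(scaled CPM + 1) scale the SNZ1 row stood at 4.68 ± 0.03 in WT, 10.58 ± 0.26 in the deletion and 7.48 ± 0.13 after rapamycin (SD, n = 2). The differences were 5.90 for the deletion against WT, 2.79 for rapamycin against WT and 3.10 for the deletion against rapamycin. Each was larger than the SD of either group, which the choice of the pair for its rise favoured. As a ratio of scaled reads summed over libraries, the SNZ1 row was 61.3-fold higher in the deletion than in WT (57.2 to 65.7), 7.29-fold higher after rapamycin than in WT (6.80 to 7.82) and 8.41-fold higher in the deletion than after rapamycin (8.20 to 8.63). The intervals here and for SNO1 below pool the reads of the 2 libraries of a group and cover counting error only. They leave out the spread between libraries, such as 1739 against 1349 scaled CPM in the deletion. Any CTF13 reads are part of each value of the SNZ1 row.

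SNO1 stood at 0.13 ± 0.18 in WT, 5.74 ± 0.09 in the deletion and 2.40 ± 0.32 after rapamycin on the same scale (SD, n = 2). Its differences were 5.62, 2.27 and 3.34 in the same order of comparisons, and the first 2 understate the change, because adding 1 outweighs the WT level. As a ratio of scaled reads SNO1 was 468-fold higher in the deletion than in WT, with an interval of 181 to 1724 that rests on 4 WT reads. After rapamycin it was 39.5-fold higher than in WT (15.2 to 146), and in the deletion it was 11.8-fold higher than after rapamycin (10.2 to 13.8). Ordered by rise on this scale, the SNZ1 row and SNO1 came at places 2 and 3 of 5279 tested rows in the deletion and at places 69 and 122 after rapamycin. The places of SNO1 depend on the 1 added: in the deletion SNO1 came at place 1 with 0.25 added or with edgeR and at place 12 with 4 added. After rapamycin it came at place 27 with 0.25, 413 with 4 and 13 with edgeR, while the SNZ1 row stayed between places 47 and 96. With 0.25 or edgeR the rise of SNO1 after rapamycin exceeded that of the SNZ1 row.

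Within a library the SNZ1 row outnumbered SNO1 throughout. There were 34.6 reads of the SNZ1 row per SNO1 read (29.9 to 40.4) in the first deletion library and 24.5 (21.7 to 27.7) in the second. After rapamycin there were 36.5 (31.4 to 42.6) and 47.2 (38.2 to 59.0). In WT there were 125.5 (48.7 to 462) in the first library, and the second, with no SNO1 read, had a lower limit of 98.7 by the same interval. The libraries of the deletion differed from each other beyond counting error, and the first WT library had the highest ratio given without a limit. Reads of CTF13 are part of all of these ratios.

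The pair had close company among other gene rows. Likeness was measured as the root mean square difference between log2(scaled CPM + 1) profiles over the 6 libraries, after subtracting each profile's mean, among 2824 rows of 1 named gene with a mean of at least 20 CPM. The 6 libraries fall into 3 groups, so the measure mostly compares 3 levels. SNO1 and the SNZ1 row were 0.28 apart, and SNO1 was the row nearest to SNZ1. Both were chosen for their rise in these same groups, so likeness between them was in part built in. SNO1 also passed the cut of 20 CPM, with a mean of 20.4, only through its level in the deletion libraries. This closeness depends on the 1 added before the log: with 0.25 in its place, chosen after seeing the data, the distance was 0.65 and SNO1 came at place 4, and with 4 it was 0.87 and SNO1 came at place 7. Among the next nearest to SNZ1 were ARG1 (0.61), LYS1 (0.62), ARG4 (0.63) and BNA1 (0.83). Among those nearest to SNO1 were LYS1 (0.47), ARG4 (0.65), BNA1 (0.66), ARG7 (0.73) and ARG1 (0.82). ARG1, ARG4 and ARG7 encode enzymes of arginine synthesis, LYS1 the last enzyme of lysine synthesis, and BNA1 an enzyme of the pathway from tryptophan to NAD.

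LYS1 had 22.0 and 23.5 scaled CPM in WT, 575 and 559 in deletion libraries and 67.7 and 68.8 after rapamycin. BNA1 had 19.1 and 18.6 in WT, 370.1 and 353 in deletion libraries and 37.7 and 40.5 after rapamycin. In the pair and in all 5 genes given here, the rapamycin libraries stood nearer to WT than to the deletion in scaled CPM. On the log2 scale this held for the SNZ1 row, LYS1, BNA1 and ARG7. It did not hold there for ARG1 (4.24 from WT and 2.34 from the deletion) or ARG4 (2.75 and 1.83). For SNO1 it held with 1 added (2.27 and 3.34) but not with edgeR (5.19 and 3.58). ARG1 went from 20.1 and 14.9 in WT to 1927 and 1594 in the deletion and had 355 and 336 after rapamycin. ARG4 went from 52.7 and 46.5 to 1193 and 1209, with 344 and 332 after rapamycin. ARG7 started highest, at 89.4 and 77.7, and reached 1145 and 1323 in deletion libraries and 278 and 261 after rapamycin. No groups overlapped in any of the 5 genes. The rows were picked for their likeness to the pair, whose groups do not overlap, so this was largely fixed by the choice. For the same reason no test is given for them.

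**Figure D3:**
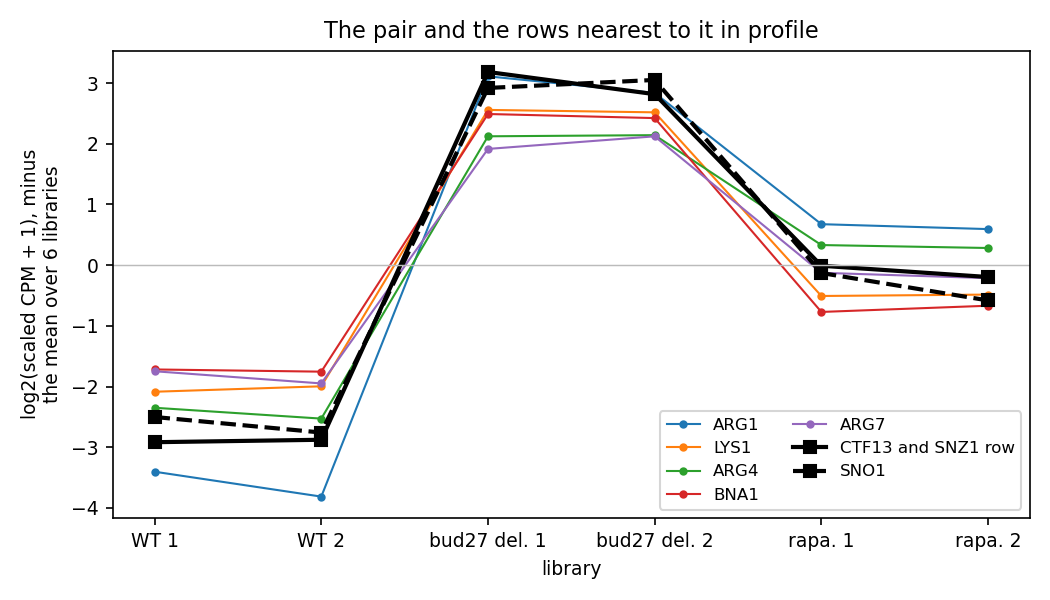
Profiles of the joined CTF13 and SNZ1 row, SNO1 and 5 of the genes nearest to them, as log2(scaled CPM + 1) minus the row's mean over the 6 libraries, by library. Every row is lowest in both WT libraries and highest in both deletion libraries; after rapamycin ARG1 and ARG4 lie above the pair, ARG7 close to it, and BNA1 below it.

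All 5 of these genes had at least 1 TGACTC, on either strand, in the 448 bases before their start codon: 2 copies before ARG1 and LYS1 and 1 before ARG4, BNA1 and ARG7. Of all windows 11.3% had at least 1 copy and 1.2% at least 2. The 5 were picked for their likeness to the pair, and ARG1, LYS1 and ARG4 are also in the list of Gcn4-activated genes below. Whether Gcn4 acted on any of them here was not tested. The copy closest to each start codon is shown with 7 bases on either side on the gene's strand, for comparison with the copies before SNZ1. Capitals mark TGACTC or its reverse complement GAGTCA.
ARG1: tatggaaGAGTCAtttaaag
LYS1: cgacaaaGAGTCAtaaagtc
ARG4: agatgaaTGACTCacttttt
BNA1: aaattgtGAGTCActgaaac
ARG7: ggtaggaTGACTCactgcgt
In order these lie at chrXV:218930-218949 (plus strand), chrIX:420858-420877 (minus), chrVIII:141569-141588 (minus), chrX:471780-471799 (minus) and chrXIII:396519-396538 (minus).

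The other genes of vitamin B6 metabolism moved far less than the pair, and not all in 1 direction. The pair was chosen for its rise in these samples, so its larger size was largely fixed by that choice. The list held 9 genes, 5 of which were tested. In the deletion 3 of the 5 rose and 1 fell, where 21.7% of all 5279 tested rows rose and 25.5% fell, and the list's median log2 fold change was 0.39 against -0.02 for all rows. After rapamycin 3 rose and none fell, against 24.4% and 21.5% of all rows, with a median of 0.65 against 0.05. A gene is called risen or fallen at a limma adjusted p below 0.05. In either direction limma called 47.2% of all rows in the deletion, 45.9% after rapamycin and 55.1% between them. edgeR called 46.5%, 50.3% and 55.1%, and DESeq2 44.7%, 47.4% and 53.2%. Both comparisons with WT share the WT libraries.

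PDX3, the oxidase that makes PLP from the phosphates of pyridoxine and pyridoxamine, had 93.1 and 88.7 scaled CPM in WT, 267 and 287 in deletion libraries and 144 and 142 after rapamycin. It repeated the order of the pair without overlap, at a far smaller size. How many of all rows do so was not counted. On the log2 scale PDX3 rose by 1.60 (SE 0.12, adjusted p = 6.23e-05) in the deletion and by 0.65 (SE 0.12, adjusted p = 0.00349) after rapamycin, and was higher in the deletion than after rapamycin by 0.95 (SE 0.12, adjusted p = 0.00043). In their 448 bases before the start codon PDX3, BUD17 and YPR127W held no TGACTC, and TPN1 and BUD16 held 1 copy each.

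TPN1, the plasma membrane transporter that takes up pyridoxine, had 108 and 102 scaled CPM in WT, 164 and 165 in deletion libraries and 175 and 158 after rapamycin. TPN1 rose by 0.64 (SE 0.13, adjusted p = 0.00451) in the deletion and by 0.66 (SE 0.13, adjusted p = 0.00349) after rapamycin on the log2 scale, and the difference between deletion and rapamycin was -0.02 (SE 0.13, adjusted p = 0.914). YPR127W, a putative pyridoxine 4-dehydrogenase that interconverts forms of the vitamin, had 21.7 and 21.7 scaled CPM in WT, 30.8 and 26.9 in deletion libraries and 46.9 and 45.5 after rapamycin. Unlike the pair it was highest after rapamycin, where it rose by 1.06 (SE 0.14, adjusted p = 0.00058). Its call in the deletion (0.39, SE 0.14, adjusted p = 0.0465) was lost with DESeq2 (0.081), with the replicate number as a block (0.0645), and without WT replicate 1 (0.141) or 2 (0.142), deletion replicate 1 (0.056) or rapamycin replicate 1 (0.0924) or 2 (0.0917).

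The putative pyridoxal kinases, which phosphorylate the vitamin taken up from the medium, parted from each other. BUD17 had 37.2 and 42.1 scaled CPM in WT, 12.5 and 13.8 in deletion libraries and 41.6 and 52.9 after rapamycin. It fell by 1.52 in the deletion (SE 0.16, adjusted p = 0.000314), in the direction opposite to the pair, and stood at 0.24 after rapamycin (SE 0.16, adjusted p = 0.27), a value that was called on the deposited CPM scale (0.83, adjusted p = 0.00361). BUD16 had 37.1 and 38.9 scaled CPM in WT, 33.3 and 32.3 in deletion libraries and 32.9 and 31.4 after rapamycin. It was not called in either comparison (log2 fold change -0.21, adjusted p = 0.22, and -0.24, adjusted p = 0.172, SE 0.13 for both), and both values change sign on the deposited CPM scale.

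**Figure D4:**
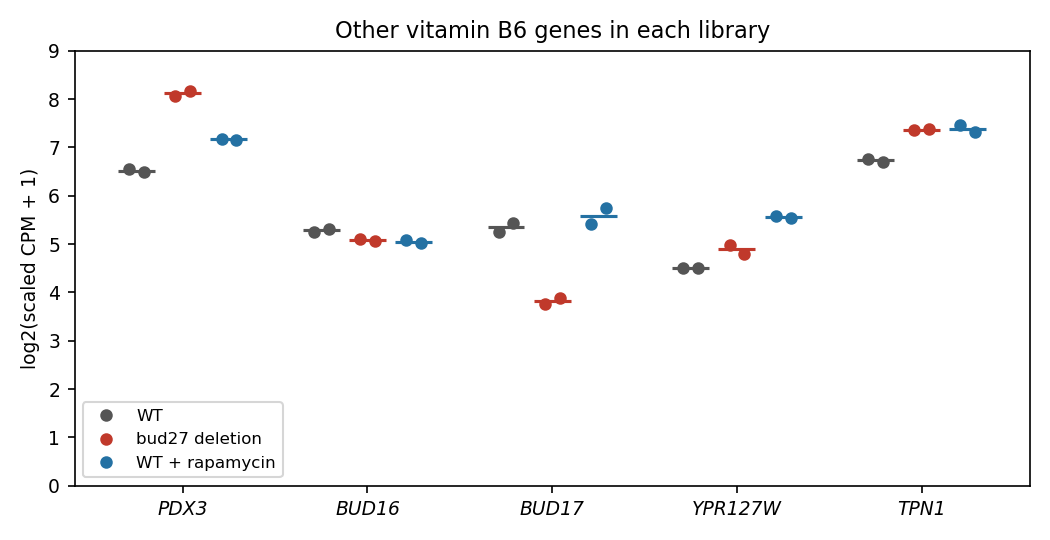
Levels of the 5 other vitamin B6 genes tested, as log2(scaled CPM + 1), in each library (points) with group means (lines, n = 2). PDX3 shows the order WT, rapamycin, deletion, BUD17 is lowest in the deletion, and YPR127W is highest after rapamycin.

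Enzymes that use PLP, the product of the pair, moved in both directions. Of the 38 rows tested, 17 rose and 8 fell in the deletion, where 21.7% of all rows rose and 25.5% fell. The list's median log2 fold change there was 0.30. After rapamycin 14 rose and 10 fell, against 24.4% and 21.5% of all rows. In both comparisons the share that fell was near that of all rows. The median after rapamycin was 0.21, or 0.12 without WT replicate 2, 0.32 without rapamycin replicate 1 and 0.06 without rapamycin replicate 2. On the deposited CPM scale the split was 24 and 5 in deletion libraries and 22 and 4 after rapamycin. In the deletion GCV2, the P subunit of glycine decarboxylase, rose from 12.7 and 11.1 to 188 and 147 scaled CPM (log2 fold change 3.70, SE 0.16, adjusted p = 3.59e-06). SRY1, which deaminates 3-hydroxyaspartate, rose from 12.0 and 12.6 to 124 and 107 (3.13, SE 0.14, adjusted p = 3.77e-06). CYS3, which makes cysteine from cystathionine, fell by 1.29 (SE 0.14, adjusted p = 0.00036). MET17, which BY4741 lacks, fell by 1.36 (SE 0.40, adjusted p = 0.0248) from 31 and 80 reads to 2 and 3. That call was lost without WT replicate 2 (0.0821), without deletion replicate 1 (0.0761) or 2 (0.0576), and with edgeR (0.0521).

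After rapamycin other PLP enzymes led. UGA1, the transaminase that degrades the amino acid GABA, rose from 41.2 and 43.4 to 639.9 and 577 scaled CPM (log2 fold change 3.81, SE 0.13, adjusted p = 1.72e-06). ALT1, an alanine transaminase, rose from 58.1 and 59.8 to 541 and 541 (3.18, SE 0.14, adjusted p = 5.76e-06), while ALT2, its paralog, fell by 1.84 (SE 0.16, adjusted p = 0.000101). MET17 fell by 2.01 (SE 0.40, adjusted p = 0.00437), with no read in either rapamycin library. Of the 8 PLP enzyme rows that are also in the Gcn4 list below, 6 rose and 1 fell in the deletion, and of the 30 others 11 rose and 7 fell. After rapamycin the counts were 1 and 1 of the 8 and 13 and 9 of the 30. Of all rows 21.7% rose and 25.5% fell in the deletion, and 24.4% and 21.5% after rapamycin.

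Genes known to be activated by Gcn4, most of them genes of amino acid synthesis, rose together in the deletion. Of 47 rows 40 rose and 1 fell, with a median log2 fold change of 2.09, where 21.7% of all rows rose and 25.5% fell. After rapamycin 21 rose and 5 fell, with a median of 0.37, against 24.4% and 21.5% of all rows. Of the list's genes 36 of 47, or 76.6%, had a TGACTC in their 448-base window, against 11.3% of all windows. The list was written as genes that Gcn4 activates, so a high share follows from the choice. Whether Gcn4 acted on them or on the pair here was not tested. The list was written with earlier results of these data known, so it is no independent evidence of its direction. ARG1, argininosuccinate synthetase, led in the deletion at 6.58, given without a test since it was picked above for its likeness to the pair. TRP5, the last enzyme of tryptophan synthesis, fell by 0.77 (SE 0.15, adjusted p = 0.00392), a call lost on the deposited CPM scale (-0.34, adjusted p = 0.0966). After rapamycin ARG1 stood at 4.24, and ARG3, ornithine carbamoyltransferase, rose by 3.29 (SE 0.15, adjusted p = 6.05e-06). LEU9 of leucine synthesis fell by 2.10 (SE 0.16, adjusted p = 5.25e-05) and BAT1, a branched-chain amino acid transaminase, fell by 1.34 (SE 0.13, adjusted p = 0.000174). On the deposited CPM scale 32 rose and 2 fell after rapamycin.

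Genes known to rise on entry into stationary phase, or through the stress factors Msn2 and Msn4, rose mostly after rapamycin. In 2 of the 30, CTT1 and SPG5, named after their values were seen, the group means had the order of the pair, but libraries of different groups overlapped. Of 30 rows 3 rose and 13 fell in the deletion, with a median of -0.46, on the deposited CPM scale 8 rose and 11 fell, and without WT replicate 2 only 9 were called. Without deletion replicate 1 the median was -0.22, with 5 higher and 12 lower, and without deletion replicate 2 it was -0.66, with 1 higher and 18 lower. After rapamycin 23 rose and none fell, with a median of 1.60. Of all rows 21.7% rose and 25.5% fell in the deletion, and 24.4% and 21.5% after rapamycin. Directly compared, none was higher and 27 were lower in the deletion than after rapamycin, where 25.6% of all rows were higher and 29.4% lower. HSP26, a small heat shock protein gene, had 14.7 and 11.1 scaled CPM in WT, 17.5 and 11.1 in deletion libraries and 1440 and 1268 after rapamycin. It rose after rapamycin by 6.62 (SE 0.22, adjusted p = 1.66e-06), and its value in the deletion was 0.12 (SE 0.22, adjusted p = 0.684). DDR2, a stress response gene, rose by 5.27 after rapamycin (SE 0.29, adjusted p = 1.2e-05). In the deletion HSP30, a plasma membrane heat shock protein gene, fell by 2.92 (SE 0.23, adjusted p = 7.57e-05), and the joined row with HXK1, a hexokinase gene, by 1.69 (SE 0.34, adjusted p = 0.00517), a call lost without WT replicate 2 (0.0671). UBI4, the polyubiquitin gene, rose by 0.86 (SE 0.15, adjusted p = 0.00293) and CTT1, the cytosolic catalase gene, by 0.70 (SE 0.25, adjusted p = 0.0475). The call of CTT1 was lost under 6 alternatives, with adjusted p up to 0.215 without WT replicate 2.

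Thiamine genes were taken as a further vitamin list, since the SNZ2 and SNZ3 paralogs are known to be regulated with them. Of 15 rows tested 1 rose and 7 fell in the deletion, with a median of -0.79, where 21.7% of all rows rose and 25.5% fell. After rapamycin 3 rose and 2 fell, with a median of 0.32. Of all rows 24.4% rose and 21.5% fell there, so the counts after rapamycin do not set the list apart. In the deletion 4 were called without WT replicate 2, and after rapamycin 2 without WT replicate 1 (median 0.14) and 3 without rapamycin replicate 1 or 2. The list thus lay on the other side of all rows from the pair in the deletion. PHO3, an acid phosphatase that frees thiamine from its phosphate, fell in both, by 1.79 (SE 0.14, adjusted p = 7.22e-05) and 2.64 (SE 0.14, adjusted p = 1.05e-05). THI6, which joins the ring moieties of thiamine, fell by 1.56 in the deletion (SE 0.18, adjusted p = 0.000461). PDC2, a transcription factor of thiamine genes, rose by 1.18 in the deletion (SE 0.20, adjusted p = 0.00236). THI7, the thiamine transporter, went from 12.5 and 10.5 scaled CPM in WT to 4.16 and 3.90 in deletion libraries and 30.4 and 28.9 after rapamycin, where it rose by 1.30 (SE 0.16, adjusted p = 0.000467). THI20 rose after rapamycin by 0.91 (SE 0.25, adjusted p = 0.019), a call lost without WT replicate 1 (0.141) or rapamycin replicate 1 (0.0641). THI80, thiamine pyrophosphokinase, fell by 0.99 (SE 0.30, adjusted p = 0.0291), a call lost without WT replicate 1 (0.0603) or 2 (0.202) or rapamycin replicate 1 (0.0672) or 2 (0.0823), and on the deposited CPM scale (0.238). On that scale 2 rose and 4 fell in the deletion, and 12 rose and 1 fell after rapamycin.

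**Figure D5:**
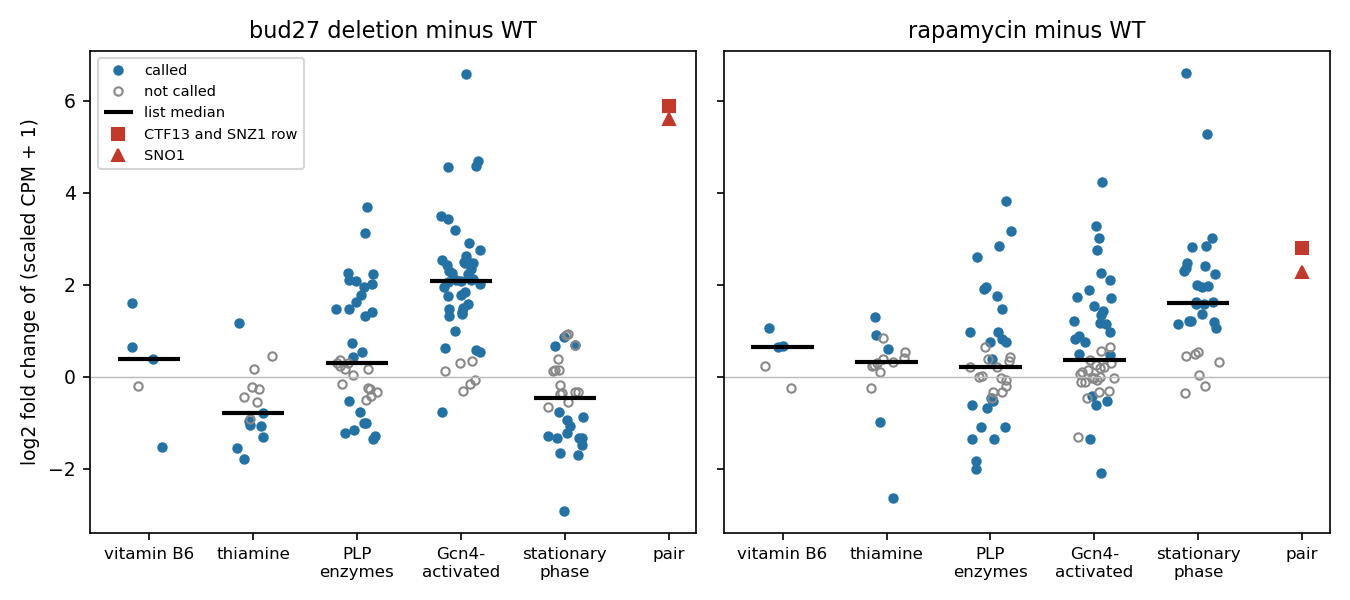
Log2 fold changes of (scaled CPM + 1) against WT in the deletion (left) and after rapamycin (right). Each point is a gene row of a list, filled where limma called it, bars are list medians, and red symbols are the pair. On this scale the pair, which was chosen for its rise, lies above all but 1 of the points in the deletion. After rapamycin HSP26 and DDR2 of the stationary phase list are among the points above it.

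GCN4 itself had 904 and 866 scaled CPM in WT, 1398 and 1716 in deletion libraries and 1785 and 1766 after rapamycin. Its transcript rose by 0.81 in the deletion (SE 0.17, adjusted p = 0.00676), a call lost without WT replicate 1 (0.0517) or 2 (0.0648), and by 1.004 after rapamycin (SE 0.17, adjusted p = 0.00219). The difference between deletion and rapamycin was -0.20 (SE 0.17, adjusted p = 0.366), while that of the pair was 3.10 and 3.34. Gcn4 is known to be controlled mainly at translation, which transcript levels do not show. GCN2, the kinase that senses uncharged tRNA, rose in the deletion by 0.60 (SE 0.14, adjusted p = 0.0102), a call lost without WT replicate 2 (0.0759).

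Among other regulators, BAS1 and PHO2, whose products act together on purine and histidine genes, rose in the deletion by 1.36 (SE 0.24, adjusted p = 0.00308) and 1.01 (SE 0.23, adjusted p = 0.00841), the latter call being lost without WT replicate 2 (0.068). The nitrogen GATA factor genes GLN3 and GAT1 rose in the deletion by 1.17 (SE 0.15, adjusted p = 0.000792) and 0.89 (SE 0.23, adjusted p = 0.0157), the latter lost without WT replicate 1 (0.12). After rapamycin they rose by 0.77 (SE 0.15, adjusted p = 0.00466) and 2.19 (SE 0.23, adjusted p = 0.000228). URE2, which restrains Gln3, rose by 0.59 (SE 0.12, adjusted p = 0.0063) in the deletion. RTG3 of the retrograde response rose by 1.25 (SE 0.14, adjusted p = 0.000372) there and by 0.71 (SE 0.14, adjusted p = 0.0042) after rapamycin, the latter lost without rapamycin replicate 1 (0.0539). The joined row with its partner RTG1 rose by 0.89 (SE 0.15, adjusted p = 0.00236) in the deletion. MSN2 fell by 0.79 (SE 0.21, adjusted p = 0.0159) in the deletion, a call lost without WT replicate 1 (0.118) or 2 (0.0531) and on the deposited CPM scale (0.194). MSN4 rose by 1.73 (SE 0.26, adjusted p = 0.00106) after rapamycin. Its value in the deletion was -0.67 (SE 0.26, adjusted p = 0.0621), called without deletion replicate 2 (0.00544) and with the replicate number as a block (0.0433).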

How the data were processed

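Per the labels' protocols, RNA was sequenced as QuantSeq 3′ libraries on Illumina instruments. Genome build R64 and the tools HISAT2, FastQC, DESeq2 and DESeq are listed, per the submitters' processing notes. How reads were counted, with which annotation, strand setting or filter, is not stated there. The table the authors deposited gives CPM values in 7247 rows for 6 samples. Of these values 100% were whole multiples, within 0.01 reads, of the value of 1 read, so reads were recovered. The 1772 rows of cryptic or stable unannotated transcripts were kept out, and 5475 gene rows remained. Of 5780 feature names in them 5458 matched the R64 annotation.

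The members, the lists and the tests were chosen with earlier results of these data known. Because the unit is CPM, log2(scaled CPM + 1) values went into limma 3.58.1 in R 4.3.3 (trend on abundance), 1 model holding all 3 groups and leaving 3 residual degrees of freedom. CPM were divided by TMM factors (edgeR 4.0.16; WT 0.767 and 0.805, deletion 1.12 and 1.01, rapamycin 1.19 and 1.20). edgeR's expression filter (minimum count 10) kept 5279 rows, and adjusted p-values follow Benjamini and Hochberg over these, with a threshold of 0.05. The fit was tested on simulated data. SNZ2, SNZ3, SNO2, SNO3, THI5, THI11, THI12 and THI13 were not analysed here, and AAT1 of the PLP list did not pass the filter. Replicates of a group differed beyond sampling noise. Intervals for read ratios are exact binomial (Clopper-Pearson) at 95%.

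Named genes are the pair, the 6 rows nearest to each member, all vitamin B6 genes tested, up to 2 called rises and 2 called falls that lead each other list in each comparison with WT, and listed regulators and neighbours, of which 1 gene is not reported here. Sequences, coordinates and motif counts are from the RefSeq copy of build R64, read with Biopython 1.88. Alternatives were the pseudocount, no filter, the deposited scale, DESeq2 size factors, edgeR and DESeq2 1.42.0 on the recovered reads, the replicate number as a block, and leaving out each sample.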

Additional observations from a re-analysis of the deposited data

How the results depend on the processing

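Under all alternatives run the pair kept the direction of its differences. On the deposited CPM scale, which moves the median of all rows to 0.38 in the deletion and 0.60 after rapamycin, the SNZ1 row stood at 6.32 and 3.39 above WT, and with a pseudocount of 4 at 2.66 after rapamycin. For SNO1 the log2 differences against WT were 7.31 (deletion) and 3.76 (rapamycin) with a pseudocount of 0.25, 3.79 and 1.02 with 4, 8.78 and 5.19 with edgeR, and 8.86 and 5.25 with DESeq2, and for the deletion against rapamycin 2.77 with a pseudocount of 4, 3.58 with edgeR and 3.61 with DESeq2. The pseudocount sets how far the 4 WT reads hold these values down. Leaving out 1 sample gave 5.54 to 5.82 for SNO1 in the deletion and 2.72 to 2.91 for the SNZ1 row after rapamycin.

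The calls over all gene rows numbered 2492 in the deletion, 2421 after rapamycin and 2908 between them. edgeR on the recovered reads called 2456, 2657 and 2911, and DESeq2 2361, 2501 and 2807. Leaving out 1 sample, which assumes that the lone sample of its group varies like the others, gave 1434 to 3031 in the deletion (1503 without WT replicate 1 and 1434 without WT replicate 2) and 1588 to 3058 after rapamycin (1605 and 1610 without these, 1588 without rapamycin replicate 1). On the deposited scale 2245 rose and 704 fell in the deletion (1147 and 1345 with TMM), 2886 and 432 after rapamycin (1286 and 1135), and 938 and 1829 were higher and lower in the deletion than after rapamycin (1354 and 1554). Thiamine calls ranged from 4 to 9 (8) in the deletion and from 2 to 7 (5) after rapamycin when 1 sample was left out, with 13 on the deposited scale, and stationary phase calls in the deletion from 9 to 19 (16). Leaving joined rows out, chosen after seeing the data, kept each list count within 1.5 times.

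Some values that were not called changed sign. On the deposited scale BUD16 stood at 0.22 in the deletion and 0.35 after rapamycin, MTG1 in the deletion at 0.00366, and after rapamycin PHO2 at 0.28 and RTG1 at 0.49 (adjusted p = 0.0315). After rapamycin MTG1 was -0.0172 with DESeq2 size factors and -0.0177 with DESeq2, and GCN2 was -0.0101 and -0.0153. Leaving out 1 sample gave, after rapamycin, -0.0190 to 0.0439 for MTG1, -0.0924 to 0.13 for GCN2, -0.40 to 0.0675 for PHO2, -0.18 to 0.0178 for RTG1 and -0.13 to 0.27 for MSN2. The cause was not tested.

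Same-numbered samples share only a number: their deviations from the group means correlated at -0.10 to 0.04 across rows. With the replicate number as a block 2377, 2320 and 2808 rows were called. The shallow deletion libraries limit what can be said of genes with few reads there.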

Other observations

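The 9 genes with at least 3 copies of TGACTC in the 448 bases before their start codon are SNO1, SNZ1, HIS4, HIS5, SHM2, ILV5, SAM37, MRPS17 and GCV2, a set fixed by sequence alone but named after its values could be seen. MRPS17 and GCV2 are divergent neighbours, as SNO1 and SNZ1 are. In the deletion GCV2 had a log2 fold change of 3.70 (limma adjusted p = 3.59e-06) and its neighbour MRPS17, a mitochondrial ribosomal protein gene, 0.72 (adjusted p = 0.0111). HIS4 of histidine synthesis had 3.20 (adjusted p = 1.11e-05), SHM2, the cytosolic serine hydroxymethyltransferase gene, 1.62 (adjusted p = 0.000165) and HIS5 1.96 (adjusted p = 0.0351). SAM37 of the mitochondrial outer membrane had -0.06 (adjusted p = 0.816) and ILV5 of branched-chain amino acid synthesis -0.70 (adjusted p = 0.0743), with a mean of only 2.79 CPM. After rapamycin GCV2 stood at 1.95 (adjusted p = 6.88e-05), HIS4 at 1.73 (adjusted p = 0.000141) and ILV5 at -1.09 (adjusted p = 0.0152). The others were not called: HIS5 at 0.64 (adjusted p = 0.445), SHM2 at 0.42 (adjusted p = 0.0506), SAM37 at -0.09 (adjusted p = 0.732) and MRPS17 at -0.20 (adjusted p = 0.379). HIS5 had 377 reads in rapamycin replicate 1 and 1604 in replicate 2, of libraries of 28774941 and 20841682 reads.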
